A study of Solanum dulcamara with 18 samples.

Results

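The comparison described here is that of flooded against normally watered Solanum dulcamara plants that carried no caterpillars. Solanum dulcamara, the bittersweet nightshade, is a wild perennial relative of tomato and potato. Its members were the 3 libraries titled flooding_no and the 3 titled control_no, 6 of the 18 libraries of the series, chosen by those titles and tied to table columns by the column number in each label. The flooding group consisted of leaves from greenhouse plants flooded for 5 days and then for 2 further days without insects, 7 days in all. The control group consisted of leaves from plants under control watering over the same time, also without insects. The series design called the 3 libraries of each group biological replicates, and the labels gave no genotype, plant age or pooling. The other 12 libraries were drought plants without insects and the 3 water treatments with 48 h of feeding by Spodoptera exigua, the beet armyworm.

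Flooding fills the soil pores with water, so that roots run short of oxygen while the leaves stay in air. In many plants the shoot of a flooded plant shows closed stomata, slowed photosynthesis, altered nutrient supply and shifts in ethylene and abscisic acid, hormones that carry stress signals. Leaves above the water therefore mostly report a response relayed from the root, and Solanum dulcamara, which grows on wet ground, is also known for forming roots on its submerged stems. These statements are background and were not tested here.

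The features were assembled contigs, stretches of transcript put together from the reads, and the tables paired none of them with a gene name. Of 24158 contig IDs, 0 were found in the reference gene table of the species, so contigs are given by their length and 4 of them by ID, gene functions are not stated, and the labelled tissue was not checked against leaf markers. In bulk leaf RNA, fewer cells of a type and less RNA per cell cannot be told apart, which bears on every change below. The flooding libraries held 11357819, 12676409 and 12153857 reads, and the control libraries 7838462, 16056241 and 15412521. The 3 flooding libraries lay apart from the 3 control libraries on the first principal component of the 6, which held 52.6% of the variance, at 38.1 to 46.0 for flooding and −51.9 to −38.0 for control. The second component, with 19.8%, had flooding replicates 2 and 3 at its ends, at 38.0 and −46.0. Levels are given in CPM, the read count scaled to a common library size. The replicate spread of log2 CPM had a median SD over contigs of 0.230 among flooding libraries and 0.180 among control libraries, and 61.4% of contigs had the larger SD under flooding.

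After 7 days, flooding had changed a sizeable share of the measured leaf contigs, and falls outnumbered rises. Of the 20170 contigs tested, 1170 rose and 2043 fell in flooded leaves relative to control leaves (edgeR quasi-likelihood test, adjusted p under 0.05 over all contigs), which is 15.9% of those tested, with 5.8% raised and 10.1% lowered. At a fold of at least 2, 271 contigs rose and 1014 fell, 1.34% and 5.03% of those tested. At least 4-fold changes numbered 65 rises and 260 falls, at least 8-fold changes 15 rises and 70 falls, and at least 16-fold changes 6 rises and 12 falls. Among calls under 2-fold the directions were closer, with 899 rises and 1029 falls. The median log2 fold change over all tested contigs was −0.003, and 49.6% of contigs lay above 0. The groups did not overlap in 6743 contigs, 33.4% of those tested, with all 3 flooding libraries above all 3 control libraries in 3050 and below them in 3693.

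**Figure D1:**
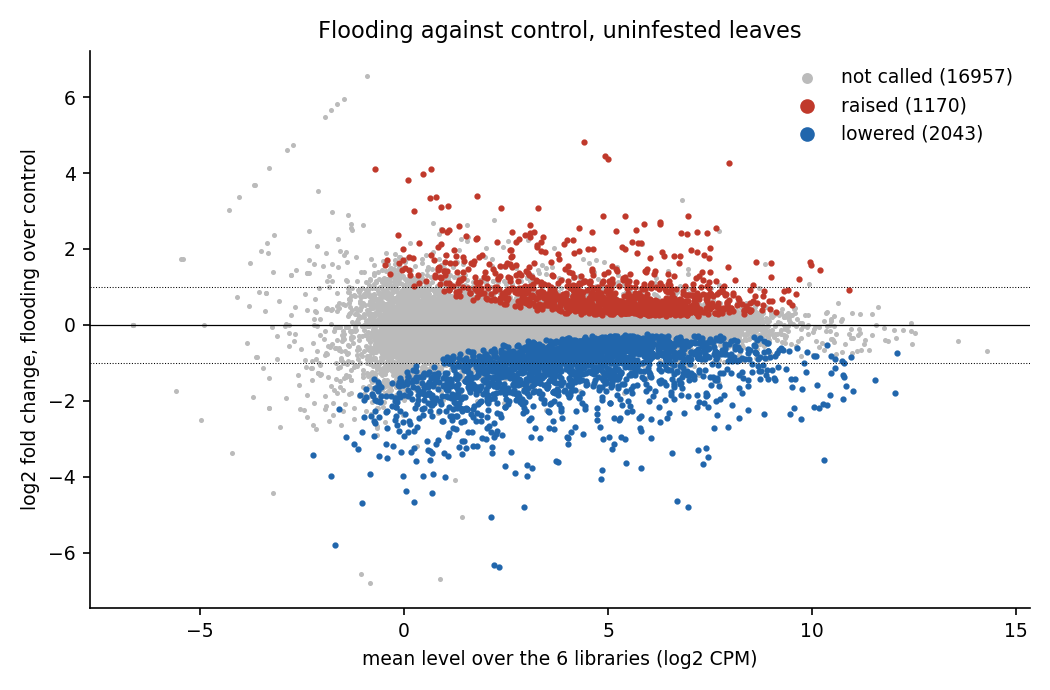
Each point is a contig, placed by its mean level over the 6 libraries (log2 CPM, horizontal) and its log2 fold change of flooding over control (vertical). Red points are the 1170 contigs raised and blue points the 2043 lowered, dotted lines mark a 2-fold change, and the blue cloud reaches further from 0 than the red one.

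**Figure D2:**
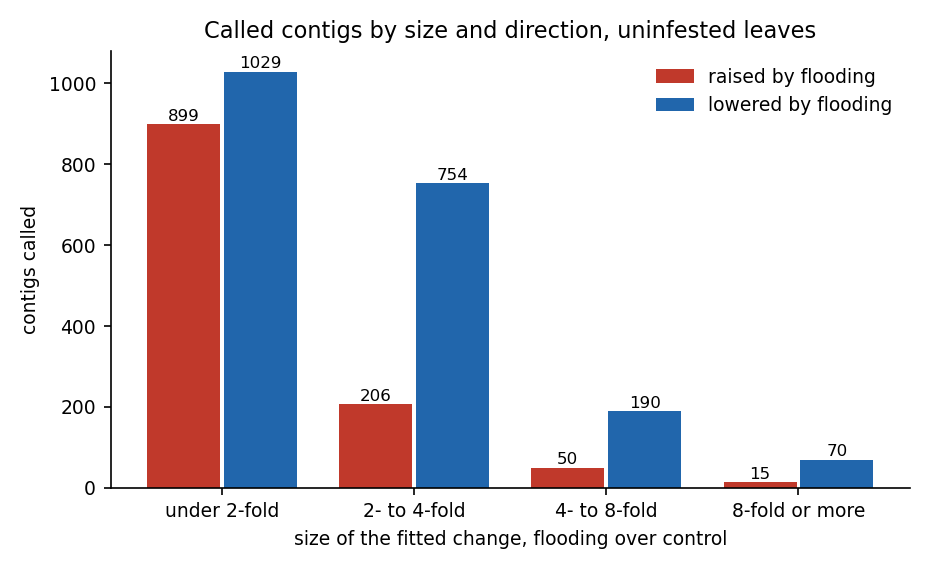
Bars count the called contigs by size of the fitted change of flooding over control, with raised contigs left of lowered ones in each class. Raised and lowered contigs number 899 and 1029 under 2-fold, and 15 and 70 at 8-fold or more.

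The number of calls rested on all 6 libraries. The count of raised contigs was 612, 742 and 648 without control replicate 1, 2 or 3 and 720 without flooding replicate 1, and the count of lowered contigs was 1341 without control replicate 1, the shallowest of the 6 libraries. Falls outnumbered rises with any 1 of the 18 libraries left out.

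The lowered contigs carried a large part of the control transcriptome. Since the same libraries chose these contigs, their shares are a description. Contigs called lower held 9.92%, 10.3% and 9.38% of the reads in flooding replicates 1, 2 and 3, against 20.6%, 18.4% and 18.0% in control replicates 1, 2 and 3. Contigs called higher held 10.8%, 9.93% and 10.0% of the reads of the flooding libraries, against 5.32%, 5.85% and 5.85% of those of the control libraries. Contigs lowered at least 2-fold fell to 3.46% ± 0.336 of all reads in flooded leaves, against 9.73% ± 1.199 in control leaves, and contigs raised at least 2-fold held 2.28% ± 0.270 in flooded leaves, against 0.713% ± 0.0636 in control leaves (SD, n = 3 each).

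The most abundant contigs took part in the fall. Among the 100 contigs most abundant over all 18 libraries, 29 were lowered and 3 raised, where 10.1% and 5.8% of all tested contigs were. At least 2-fold, 19 were lowered and 2 raised, where 5.03% and 1.34% of all tested contigs were, and the median log2 fold change of the 100 was −0.40. Together these 100 held 19.3%, 21.6% and 16.6% of the reads in flooding replicates 1, 2 and 3, against 24.9%, 23.8% and 21.9% in the control replicates. The groups did not overlap, and the difference of −4.32 percentage points had p = 0.1 in a two-sided exact permutation test, the smallest p that 3 against 3 libraries can give. The number of contigs at 1 CPM or more was 18543 ± 53.8 in flooding libraries and 18616 ± 124 in control libraries (SD, n = 3 each, exact permutation test, two-sided, p = 0.5, where 0.1 is the smallest possible). The difference of −73 contigs changed in size and sign with the level taken as detected.

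Calls were spread over all levels of abundance and all lengths. The tested contigs were divided into 4 equal classes by their mean CPM over all 18 libraries, of which the lowest ended at 3.82 CPM and the highest began at 43.5 CPM. From the lowest class to the highest, these held 8.38%, 20.4%, 29.8% and 41.4% of the raised contigs. They held 17.0%, 25.1%, 28.2% and 29.7% of the lowered contigs in the same order. Changes of at least 2-fold did not follow this gradient, with 313, 301, 196 and 204 falls and 76, 78, 42 and 75 rises in these classes. The median log2 fold change of the classes ran from −0.04 in the lowest to 0.02 in the highest. By length, 16.0% of raised and 17.7% of lowered contigs were in the shortest of 4 equal classes (501 to 789 bases), and 33.0% of raised and 27.0% of lowered contigs were in the longest (1854 bases or more). Reads available per contig grow with level and length, and their part in these shares was not tested.

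The 3 contigs that rose most in fold were scarce in control leaves. The steepest, comp3662_c0_seq1 (974 bases), had 49.7, 52.0 and 21.1 CPM in flooding replicates 1, 2 and 3, against 1.40, 1.59 and 1.30 CPM in control replicates 1, 2 and 3. All 3 flooding values stood far above the control values, with replicate 3 the lowest of the flooded leaves. Its log2 fold change was 4.82 ± 0.82 (SE, edgeR adjusted p = 0.0017). A contig of 657 bases had 62.4, 57.8 and 55.2 CPM in flooding libraries and 1.68, 2.58 and 3.39 CPM in control libraries (log2 fold change 4.45 ± 0.45, adjusted p = 5.15e-05). One of 609 bases followed it closely, with 67.1, 57.8 and 58.3 CPM in flooding libraries and 2.38, 2.97 and 3.26 CPM in control libraries (4.37 ± 0.39, adjusted p = 2.7e-05). These 2 contigs had levels within a few CPM of each other in each of the 6 libraries, and whether they are pieces of 1 transcript was not tested.

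The other steep rises varied more among replicates. A contig of 946 bases stood at 715, 321 and 400 CPM in flooding libraries, against 4.33, 20.2 and 48.7 CPM in control libraries, so the control values alone spanned more than a factor of 10 (log2 fold change 4.26 ± 1.29, adjusted p = 0.0366). This call was lost without any 1 of the 6 libraries compared (adjusted p between 0.0547 and 0.12), and its adjusted p was 0.00223 without infested control replicate 2, which shares in the spread. A contig of 588 bases had 18.6, 14.2 and 18.9 CPM in flooding libraries and 2.38, 1.26 and 2.54 CPM in control libraries (3.09 ± 0.74, adjusted p = 0.0118), and its call was lost without control replicate 2 (adjusted p = 0.0553). The sixth, of 1715 bases, had 205, 393 and 61.6 CPM in flooding libraries and 18.4, 44.7 and 26.4 CPM in control libraries (2.87 ± 0.77, adjusted p = 0.0212). Its lowest flooding library was only a little above its highest control library, and the call was lost without control replicate 1 or 3 or flooding replicate 2 (adjusted p = 0.0846, 0.0764 and 0.0903), with a log2 fold change of 2.14 without the last. Contigs outside this choice also held rises of at least 8-fold, which are not described singly.

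By gain in level under the same choice, the largest rises were modest folds of abundant contigs. The largest gain was that of comp346_c0_seq1 (1896 bases), with 2961, 2914 and 1633 CPM in flooding libraries, against 1110, 1515 and 1342 CPM in control libraries. Flooding replicate 3 lay just above the highest control library, and the log2 fold change was 0.92 ± 0.20 (adjusted p = 0.00626). The tightest of these rises was that of a contig of 1978 bases, at 1815, 1735 and 1598 CPM in flooding libraries and 611, 668 and 621 CPM in control libraries (1.44 ± 0.16, adjusted p = 5.15e-05). A contig of 2984 bases averaged 1491 ± 343 CPM in flooded leaves and 476 ± 35.9 CPM in control leaves (SD, n = 3 each), with a log2 fold change of 1.65 ± 0.44 (adjusted p = 0.0195), and one of 1096 bases averaged 1516 ± 458 CPM in flooded leaves and 504 ± 90.3 CPM in control leaves (1.59 ± 0.39, adjusted p = 0.0119). The call of the contig of 2984 bases was lost without any 1 control library or without flooding replicate 1 (adjusted p between 0.0536 and 0.0706), and that of the contig of 1096 bases without control replicate 3 (0.0519). The remaining pair, of 2256 and 1915 bases, had log2 fold changes of 1.21 ± 0.26 and 1.63 ± 0.38 (adjusted p = 0.00583 and 0.0101). The contigs of 1896, 1978 and 1096 bases were the 3 raised among the 100 most abundant.

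Under the same choice, the steepest falls left contigs of moderate level in control leaves at means under 10 CPM in flooded leaves. comp293_c0_seq1 (986 bases) had 11.8, 8.72 and 5.50 CPM in flooding libraries, against 318, 203 and 203 CPM in control libraries. No library of 1 group came near the other, and the log2 fold change was −4.80 ± 0.47 (adjusted p = 5.15e-05). A contig of 2076 bases had 12.3, 7.05 and 4.75 CPM in flooding libraries and 247, 161 and 191 CPM in control libraries (−4.64 ± 0.36, adjusted p = 1.77e-05). One of 1254 bases had 3.70, 3.49 and 2.49 CPM in flooding libraries and 60.2, 41.4 and 59.1 CPM in control libraries (−4.05 ± 0.36, adjusted p = 2.39e-05). In all 3 of these contigs, flooding replicate 1 was the highest flooding library and replicate 3 the lowest.

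Below them came contigs of 1444, 792 and 2201 bases. The first of these averaged 0.935 ± 0.282 CPM in flooded leaves and 15.1 ± 4.17 CPM in control leaves (SD, n = 3 each), and changed by −3.99 ± 0.51 on the log2 scale (adjusted p = 0.000206). The contig of 792 bases had 6.21, 0.396 and 4.82 CPM in flooding libraries, against 66.5, 50.1 and 45.5 CPM in control libraries (−3.82 ± 0.83, adjusted p = 0.00728). The longest, of 2201 bases, had 1.76, 0.0792 and 1.66 CPM in flooding libraries and 30.2, 8.13 and 11.1 CPM in control libraries (−3.78 ± 0.94, adjusted p = 0.0148). In both contigs flooding replicate 2 was lower than the other flooding libraries by a factor of more than 10, and the call of the longest was lost without flooding replicate 2 (adjusted p = 0.051) or control replicate 1 (adjusted p = 0.0642), where its log2 fold change was −3.23 and −3.04. Contigs under a mean of 8 CPM held still larger fitted falls, down to a log2 fold change of −6.38, and are not described singly.

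Again under this choice, the largest losses in level were those of some of the most abundant leaf contigs. comp15_c0_seq1 (1191 bases) had 1435, 2674 and 1508 CPM in flooding libraries, against 7808, 6619 and 5217 CPM in control libraries, so that its mean fell by 4676 CPM (log2 fold change −1.81 ± 0.34, adjusted p = 0.00224). A contig of 1337 bases had 1292, 2171 and 1300 CPM in flooding libraries and 5521, 4145 and 3389 CPM in control libraries (−1.45 ± 0.28, adjusted p = 0.0029). One of 1364 bases had 788, 1274 and 765 CPM in flooding libraries and 4060, 3044 and 2412 CPM in control libraries (−1.75 ± 0.30, adjusted p = 0.00126). These contigs shared a pattern across libraries: flooding replicate 2 was the highest flooding library, and control replicate 1 was the highest control library. Each library entered the difference of means that chose these contigs, so a high control replicate 1 favoured a place in the list.

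The same replicates were highest in the other 3 large losses. A second contig of 1337 bases averaged 709 ± 283 CPM in flooded leaves and 2767 ± 852 CPM in control leaves (SD, n = 3 each; −1.96 ± 0.33, adjusted p = 0.00117). One of 1748 bases had 144, 319 and 118 CPM in flooding libraries, against 3440, 1840 and 1632 CPM in control libraries, the steepest fold among the 6 (−3.57 ± 0.69, adjusted p = 0.0037). The mildest, of 885 bases, had 3172, 4008 and 2599 CPM in flooding libraries and 6128, 5593 and 4495 CPM in control libraries (−0.73 ± 0.22, adjusted p = 0.0349). Its call was lost without control replicate 1 or 2 or flooding replicate 1 or 3 (adjusted p between 0.0894 and 0.131).

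**Figure D3:**
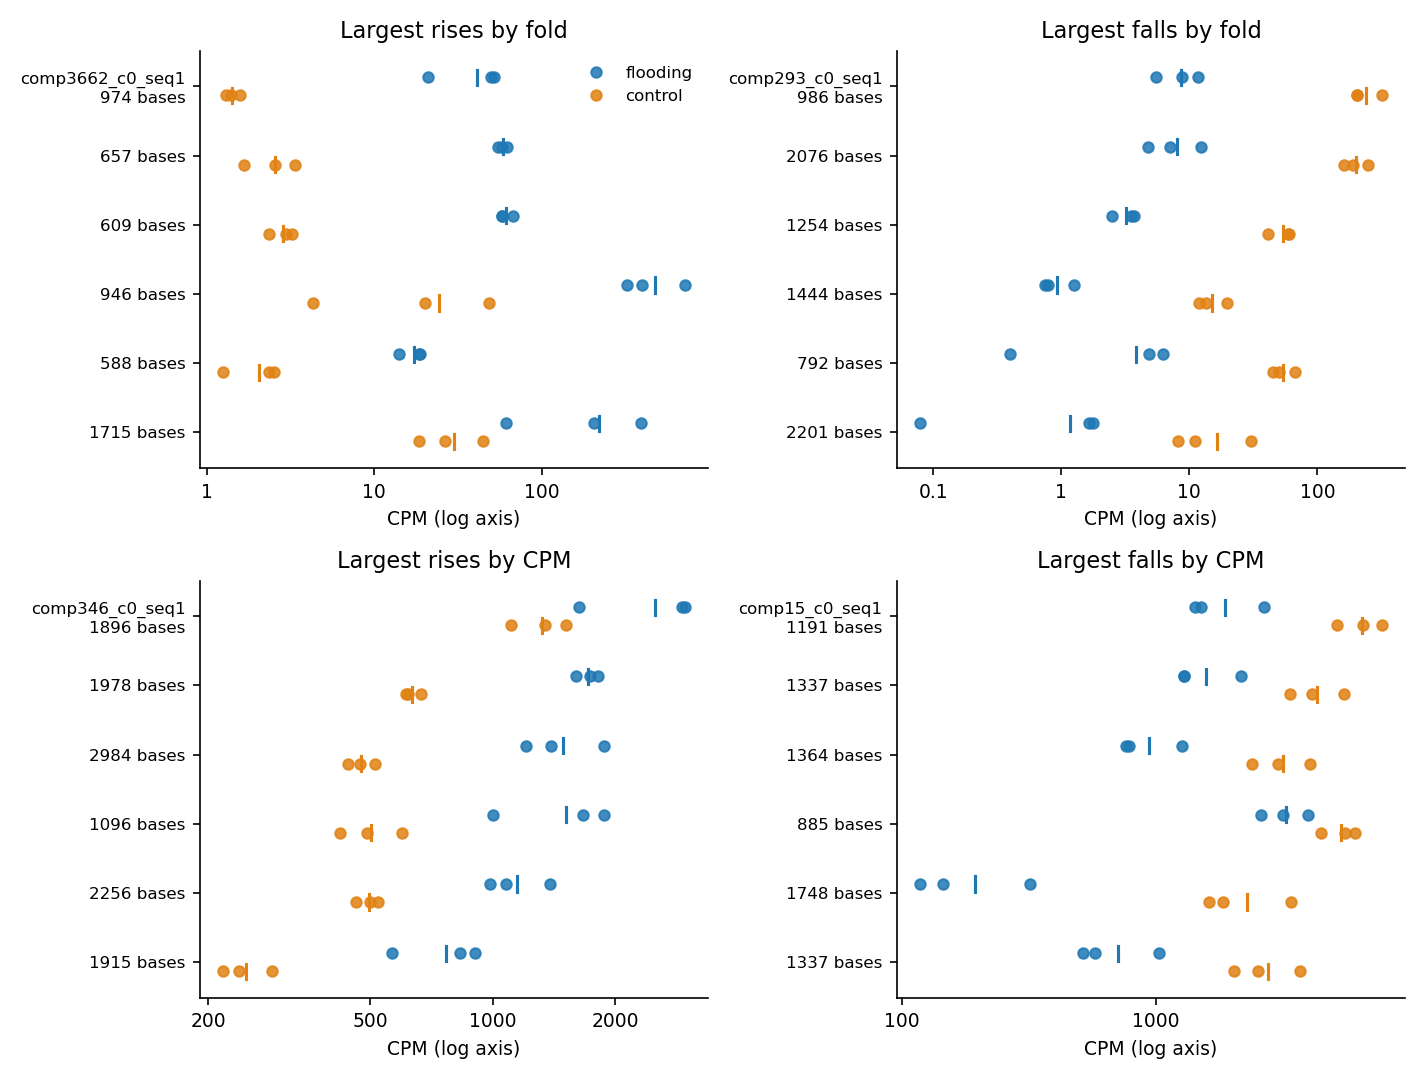
Points are the CPM of single libraries (log axis) for the 6 contigs with the largest rise or fall by log2 fold change (upper panels) and by difference in mean CPM (lower panels), with flooding in blue above control in orange and a vertical bar at each mean. In each contig the 3 flooding points lie wholly on 1 side of the 3 control points, as the choice of contigs required, and the gap is narrowest for comp346_c0_seq1 and the contig of 885 bases.

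Flooding was also compared with control watering in leaves under caterpillar attack. These 6 libraries entered no mean of the comparison above, but they shared its estimate of the spread. Infested flooded leaves had 1352 contigs higher and 1750 lower than infested control leaves (edgeR, adjusted p under 0.05; 6.7% and 8.68% of the 20170 tested, 15.4% in all), 347 and 804 of them at least 2-fold (1.72% and 3.99%). Contigs raised in both numbered 663, which is 56.7% of those raised in uninfested leaves and 49.0% of those raised in infested leaves. Contigs lowered in both numbered 1262, 61.8% of the uninfested and 72.1% of the infested list. Of the contigs called in uninfested leaves, 98.4% of the raised and 97.5% of the lowered had the same sign in infested leaves, where 77.4% of all tested contigs had the same sign in both. Across the 20170 contigs, the log2 fold changes of uninfested and infested leaves had a Pearson r of 0.73, and the contigs share their base composition and library preparation but no library.

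Recurrence was counted by size of change. Of contigs raised under 2-fold in uninfested leaves, 55.7% were also called higher in infested leaves. The counts were 126 of 206 raised 2- to 4-fold, 25 of 50 raised 4- to 8-fold and 11 of 15 raised at least 8-fold. The share of raised contigs called again did not grow steadily with the size of the rise. Of contigs lowered under 2-fold, 59.2% were also called lower in infested leaves. Here the counts were 477 of 754 lowered 2- to 4-fold, 121 of 190 lowered 4- to 8-fold and 55 of 70 lowered at least 8-fold. The contigs raised at least 2-fold in uninfested leaves had a median log2 fold change of 1.45 there and 1.28 in infested leaves, and those lowered at least 2-fold had −1.55 in uninfested and −1.21 in infested leaves. Chosen the other way, the contigs lowered at least 2-fold in infested leaves had a median of −1.37 in uninfested and −1.47 in infested leaves, and in both directions the leaves that chose the contigs gave the larger value. The number raised in both was 424 or 418 without uninfested control replicate 1 or 3, 344 without infested control replicate 3 and 363 without infested flooding replicate 2, and the number lowered in both was 755 without infested flooding replicate 2. The count of all contigs raised in infested leaves, whether or not raised in uninfested leaves, was 798 or 557 without infested control replicate 1 or 3 and 546 without infested flooding replicate 2, and that lowered was 1043 without infested control replicate 3 and 859 without infested flooding replicate 2.

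**Figure D4:**
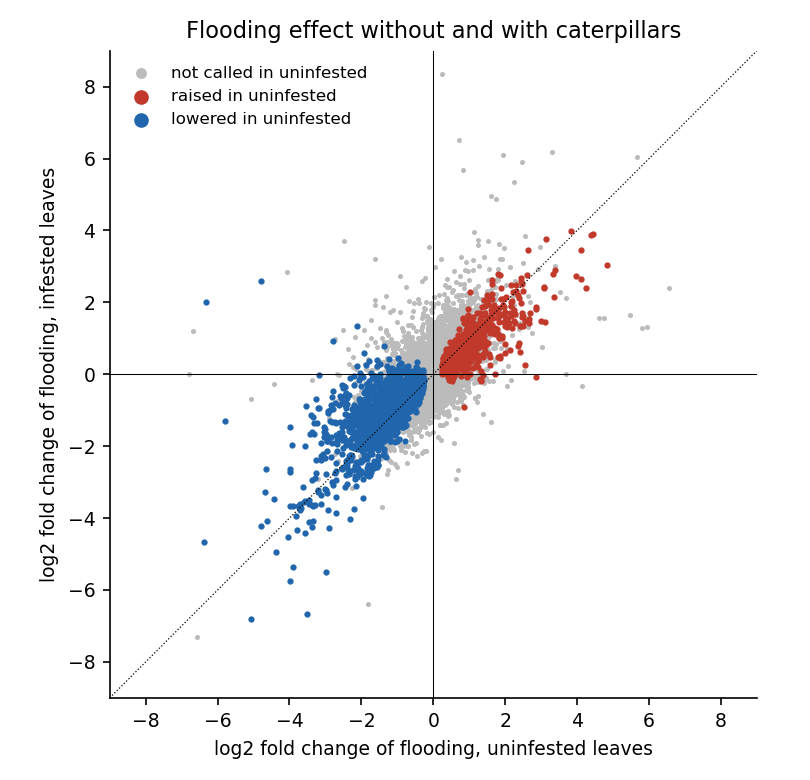
Each point is a contig, with the log2 fold change of flooding over control in uninfested leaves (horizontal) and in infested leaves (vertical), and the dotted line marks equal changes. Contigs raised in uninfested leaves (red) and lowered ones (blue) lie mostly in the upper right and lower left, with 98.4% and 97.5% on the same side of 0.

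The difference between the flooding effects of uninfested and infested leaves was itself tested and edgeR called 0 of 20170 contigs. At an unadjusted threshold of 0.05 edgeR counted 755 contigs, fewer than 5% of those tested, and DESeq2 called 6 after adjustment. One contig, singled out after its values were seen, was called in opposite directions. This contig of 862 bases had 4.12, 4.12 and 3.47 CPM in uninfested flooding libraries and 2.24, 1.98 and 2.28 CPM in uninfested control libraries (0.85 ± 0.26, adjusted p = 0.0376). In infested leaves it had 1.90, 2.17 and 1.49 CPM in flooding libraries and 3.08, 4.46 and 2.81 CPM in control libraries (−0.92 ± 0.28, adjusted p = 0.037). The difference between these effects did not pass the test (1.76 ± 0.38, adjusted p = 0.729).

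All 12 contigs of the described falls were also called lower in infested leaves, and 9 of the 12 described rises were called higher. Of all tested contigs, 8.68% were called lower and 6.7% higher there. Of all contigs lowered at least 2-fold in uninfested leaves, 64.4% were called lower in infested leaves. Of all those raised at least 2-fold, 59.8% were called higher. comp293_c0_seq1 had 14.5, 5.31 and 20.3 CPM in infested flooding libraries, against 202, 241 and 309 CPM in infested control libraries (log2 fold change −4.21 ± 0.46, adjusted p = 0.000111). comp15_c0_seq1 had 994, 479 and 1190 CPM in infested flooding libraries, against 4993, 3679 and 6670 CPM in infested control libraries (−2.53 ± 0.35, adjusted p = 0.0004). comp346_c0_seq1 had 2453, 2522 and 2781 CPM in infested flooding libraries, against 1370, 1384 and 1132 CPM in infested control libraries (0.997 ± 0.203, adjusted p = 0.00454). These 3 contigs changed in the same direction in all infested flooding libraries, with no overlap.

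Infested control replicate 2 stood apart for several of the rising contigs. comp3662_c0_seq1 had 52.5, 117 and 68.2 CPM in infested flooding libraries, against 2.85, 23.4 and 2.27 CPM in infested control replicates 1, 2 and 3 (3.05 ± 0.68, adjusted p = 0.00926). The contig of 946 bases had 727, 434 and 621 CPM in infested flooding libraries and 3.20, 327 and 7.46 CPM in infested control libraries (2.40 ± 1.18, adjusted p = 0.185). The 3 described rises without a call in infested leaves were those of 946, 1715 and 1096 bases. Infested control replicate 2 was the highest of its group in each of them, at 327, 148 and 1257 CPM. Without that library, 1171 contigs were higher and 1477 lower in infested flooded leaves, and 601 were raised and 1049 lowered in both uninfested and infested leaves.

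Flooded and drought-stressed leaves were set against each other directly, since both effects use the same control libraries. Relative to uninfested drought leaves, 590 contigs were higher and 960 lower in flooded leaves (edgeR, adjusted p under 0.05; 2.93% and 4.76% of the 20170 tested, 7.68% in all), 165 and 596 of them at least 2-fold (0.818% and 2.95%) and 9 and 118 at least 8-fold. Of the 12 described rises, 3 were also higher in flooded than in drought leaves. The contig of 1978 bases averaged 1716 ± 110 CPM in flooded leaves and 993 ± 186 CPM in drought leaves, the contig of 2256 bases 1149 ± 210 CPM in flooded and 481 ± 122 CPM in drought leaves, and the contig of 609 bases 61.1 ± 5.23 CPM in flooded and 27.9 ± 13.5 CPM in drought leaves (SD, n = 3 each; adjusted p = 0.00528, 0.00828 and 0.0448). Of the 12 described falls, 3 were lower in flooded than in drought leaves. They were comp293_c0_seq1, at 8.66 ± 3.13 CPM in flooded and 27.3 ± 14.2 CPM in drought leaves (adjusted p = 0.0319), the contig of 2076 bases, at 8.05 ± 3.90 CPM in flooded and 34.9 ± 8.79 CPM in drought leaves (0.00162), and that of 1254 bases, at 3.22 ± 0.646 CPM in flooded and 8.72 ± 1.76 CPM in drought leaves (0.0265).

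For other described contigs no difference from drought was detected. comp346_c0_seq1 averaged 2503 ± 754 CPM in flooded leaves and 2516 ± 311 CPM in drought leaves (log2 fold change −0.01 ± 0.20, adjusted p = 0.99), and comp15_c0_seq1 averaged 1872 ± 696 CPM in flooded and 2774 ± 318 CPM in drought leaves (−0.57 ± 0.33, adjusted p = 0.337). Some of the largest differences from drought lay in contigs that flooding itself had not been called to change. By the same rule on level and overlap, applied after the other results were seen, the steepest in which flooded leaves were higher was a contig of 1028 bases with 36.4, 15.1 and 8.97 CPM in flooding libraries and 2.00, 0.153 and 1.70 CPM in drought libraries (3.96 ± 0.86, adjusted p = 0.0123). The steepest in which they were lower had 511 bases, with 0.336, 0 and 0.0754 CPM in flooding libraries and 103, 13.5 and 33.1 CPM in drought libraries (adjusted p = 0.000811). Against control leaves these 2 contigs did not pass the test for flooding (adjusted p = 0.0909 and 0.282). The control libraries had 12.9, 2.31 and 1.17 CPM of the contig of 1028 bases, and 1.26, 0.991 and 1.04 CPM of that of 511 bases. The count of contigs higher in flooded than in drought leaves was 287, 354 or 366 without drought replicate 1, 2 or 3 and 268 or 293 without flooding replicate 1 or 2, and the count lower was 565 or 490 without flooding replicate 1 or 2.

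The contigs changed at least 2-fold by flooding can be followed through all 6 groups as a mean log2 CPM. The values are given relative to infested control leaves, whose means did not enter the choice of contigs. All 18 libraries did enter the low-count filter and the estimate of the spread behind the calls. The 271 raised contigs stood at 1.52 ± 0.13 in uninfested flooding leaves and −0.087 ± 0.124 in uninfested control leaves, the 2 groups that chose them, and at 1.32 ± 0.20 in infested flooding leaves and 0 ± 0.313 in infested control leaves (SD, n = 3 each). Drought leaves lay between these levels, at 0.93 ± 0.14 uninfested and 0.75 ± 0.099 infested. The 1014 lowered contigs stood at −1.85 ± 0.11 in uninfested flooding leaves and −0.20 ± 0.083 in uninfested control leaves, and at −1.30 ± 0.30 in infested flooding leaves and 0 ± 0.064 in infested control leaves. By group mean they also lay in between under drought, at −1.05 ± 0.21 uninfested and −0.72 ± 0.029 infested. Uninfested drought replicates 1 and 2, at −1.16 and −1.17, lay beyond infested flooding replicate 3, at −1.02. In both lists every infested drought library lay beyond every infested control library on the side of flooding. The means of these groups did not enter the choice of the lists, but their libraries shared in the filter and the spread.

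**Figure D5:**
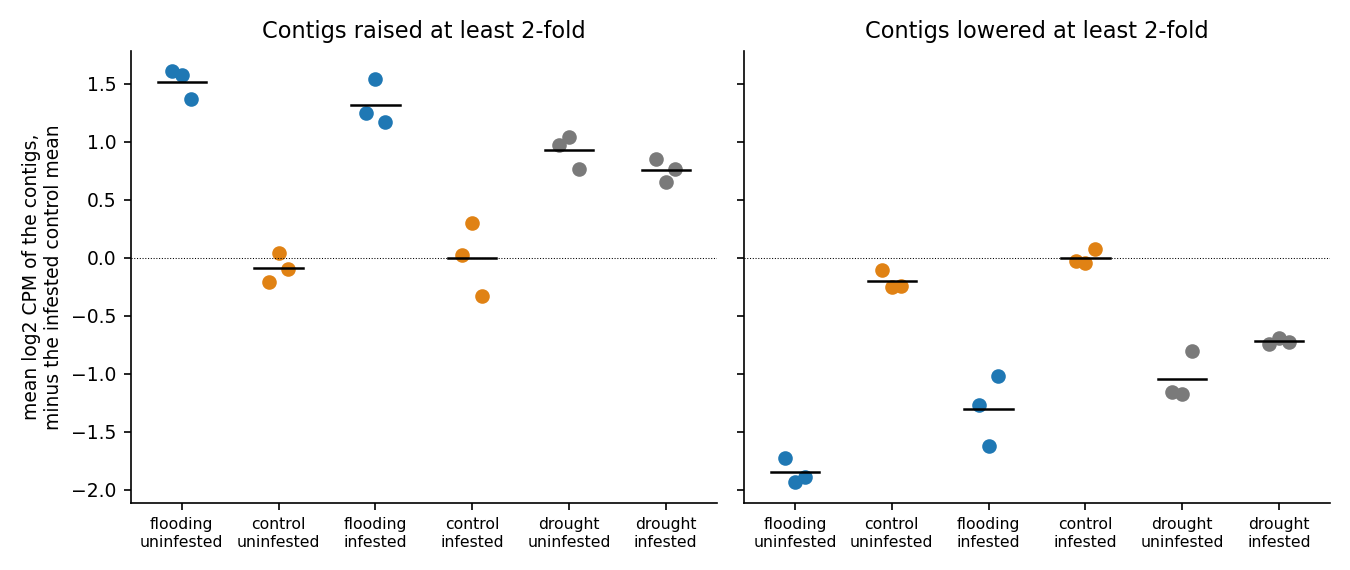
Points are libraries and bars group means of the mean log2 CPM of the 271 contigs raised (left) and the 1014 lowered (right) at least 2-fold by flooding in uninfested leaves, relative to the infested control mean. By group mean, flooding groups lie furthest from control groups in both panels, and drought groups lie between them, at 0.93 and 0.75 on the left and −1.05 and −0.72 on the right. Single libraries of uninfested drought and infested flooding leaves overlap on the right.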

How the data were processed

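Leaf RNA of 18 samples was sequenced, 3 per combination of water and insect treatment. Total RNA was isolated by column and treated with DNase, per the labels' protocols. The submitters' processing notes name Bowtie 0.12.7 and DESeq. How contigs were assembled, how reads were counted and whether strand was used is not given in the sources used here. The authors deposited raw counts of reads for 24158 contigs (501 to 15047 bases), of which 546 had 0 reads in all libraries. Their second deposited table held a normalized signal, equal on its values to the count times 1 factor per library, per kilobase, without 1748 contigs called noise, 134 of them tested here.

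Counts were tested with edgeR 4.0.16 in R 4.3.3. filterByExpr (minimum count 10, minimum total 15) left 20170 contigs, TMM scaled the libraries, and 1 robust quasi-likelihood model with 6 group means was fitted to all 18 libraries (12 residual degrees of freedom). Calls are Benjamini-Hochberg adjusted p under 0.05. SE is the absolute log2 fold change over the square root of F, and a prior count of 2 entered log2 CPM. Depth was 6717218 to 16056241 reads, and replicates in the 2 groups varied beyond counting noise (chi-square per degree of freedom 7.72 to 45.6). DESeq2 1.42.0 and limma 3.58.1 (on the normalized signal) served as alternatives, beside other filters, scalings, fits and left-out libraries. The edgeR procedure was tested on simulated data.

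Described contigs were called, with a mean of at least 8 CPM over the 6 libraries and groups that did not overlap: per direction, the 6 largest by log2 fold change and the 6 largest by difference in mean CPM, the first of each with its ID. Members, rule and alternatives were chosen with earlier results of these data known. p-values measure the spread between these samples.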

Additional observations from a re-analysis of the deposited data

How the results depend on the processing

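Alternatives with limma were not run for the abundance and length classes. Of 24 described contigs, 16 were called under all alternatives in which they were tested, and none changed direction. The count of contigs called for flooding in uninfested leaves ranged from 1953 to 3397 when 1 library was left out (612 to 1225 raised, 1341 to 2172 lowered, 187 to 294 and 818 to 1069 at least 2-fold, 15 to 19 and 69 to 96 at least 8-fold). A stricter filter left 7 raised and 37 lowered at least 8-fold. Infested leaves had 546 to 1401 raised and 859 to 2058 lowered over the left-out libraries and 533 and 1087 in a fit of their 6 libraries. Contigs raised in both ranged from 344 to 693 and lowered in both from 755 to 1292. Between uninfested and infested flooding effects 0 or 1 contigs were called over the left-out libraries, 1 with limma at a pseudocount of 0.1 and 6 with DESeq2. In all 6 DESeq2 calls the uninfested effect was the lower of the pair, but the edgeR adjusted p of each was 0.133 or more. One of the 6, of 2005 bases, had an extreme fitted log2 fold change of 21.9 in infested leaves, against 0.39 in uninfested leaves. Against drought, 268 to 838 contigs were higher and 490 to 1146 lower over the left-out libraries, and 189 and 457 in a fit of those 6 libraries. The lowest of 4 abundance classes held 3.76% of raised and 9.17% of lowered calls with no filter, and 15.0% of raised calls with the stricter one. The difference in detected contigs, −73 at 1 CPM, was 49.3 at 2 CPM, −217 at 0.5 CPM and −95.7 for contigs with a read after thinning to equal depth, and −141 to −20.3 over the left-out libraries. The causes were not tested.

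Whether the replicate number pairs the samples was not tested. Deviations of flooding and control replicates 1, 2 and 3 from their group means correlated at 0.04, 0.16 and 0.28. Between unlike numbers the correlations ran from −0.225 to 0.0753. Flooding replicates 2 and 3 correlated best with the control replicate of their own number, and flooding replicate 1 with control replicate 2 (0.059). Deviations sum to 0 within each group, so these correlations are tied to one another and are not separate evidence. With a replicate block, 1074 contigs were raised and 1906 lowered. The 6 libraries alone gave 885 and 1566 without a block and 1343 and 2154 with a block. The calls of the contig of 946 bases (adjusted p = 0.0546 and 0.0794), of 885 bases (0.0562 in all 18 libraries) and of 1715 bases (0.0634 in the 6) were lost under the block. A fit of the 6 libraries alone lost comp346_c0_seq1 (adjusted p = 0.0533) and the contig of 885 bases (0.0879). Depth limits contigs of a few CPM, in the lowest abundance class.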

Other observations

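Wide variation among replicates was more common under flooding. Among the 12551 contigs that averaged 8 CPM or more over the 6 libraries, the highest and lowest flooding library differed at least 4-fold in 74, and the highest and lowest control library in 17. Flooding replicate 3 was the highest flooding library in 36 of the 74 and replicate 2 the lowest in 39, and 22 of the 74 were called for flooding, where 19.1% of the 12551 were. The mean over both groups kept these contigs, so one lowered by flooding could have few reads in the flooding libraries. The part of counting noise was not tested.

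Contigs with no reads in 1 whole group were rare. Of the contigs tested, 12 had 0 reads in all flooding libraries and 19 had 0 reads in all control libraries, and none of them had 10 reads in each library of the other group. One of the 12 was called, a contig of 527 bases with 0 reads in each flooding library and 4, 5 and 14 reads in the control libraries (edgeR adjusted p = 0.00617).

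Of 120 assembly components with more than 1 tested contig (246 contigs in all), 35 had a called contig. Among all tested contigs, 15.9% were called. This rate is per contig, so it is not a background for the 35 components, each of which held more than 1 tested contig. Whether contigs of such components were called more often than other contigs was not tested. In 30 of the 35 components only 1 contig was called, in 4 the calls had 1 direction, and in 1 they had both. In that component of 4 contigs, singled out after its values were seen, the contig of 5504 bases averaged 98.5 ± 5.12 CPM in flooded leaves and 140 ± 8.97 CPM in control leaves (SD, n = 3 each; log2 fold change −0.50 ± 0.13, edgeR adjusted p = 0.0126). The contig of 801 bases averaged 11.7 ± 1.23 CPM in flooded leaves and 8.03 ± 0.60 CPM in control leaves (0.54 ± 0.17, adjusted p = 0.0364). How the counting split reads within such a component was not tested, so these values are uncertain.

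Of the 134 tested contigs that the authors' normalized table left out, 2 were raised and 10 lowered by flooding, where 5.8% and 10.1% of all tested contigs were. At least 2-fold, 1 was raised and 9 were lowered, where 1.34% and 5.03% of all tested contigs were.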
